A study of Mus musculus with 3 samples.

Results

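Levels of 9 transcription factors that set the identity of myeloid cells, *Spi1*, *Irf4*, *Irf8*, *Zbtb46*, *Batf3*, *Maf*, *Cebpa*, *Cebpb*, and *Klf4*, were read in 3 single-cell RNA libraries, out of 31053 mouse genes listed in the files. The genes were chosen by symbol, as known lineage factors of macrophages, dendritic cells (DCs), and granulocytes, and all 9 were found in each library. The Co-Mac library held untreated cells from bone marrow of C57/BL6 mice that was grown with granulocyte-macrophage colony-stimulating factor (GM-CSF) for 7 days. The VD-Mac library held cells of the same culture protocol that also received 1,25 dihydroxy-cholecalciferol (VD3), the active form of vitamin D, at 1 μM for 24 hours. The hSTSG library held cells of 5 C57/BL6 host mice that had entered split-thickness grafts of human skin implanted subcutaneously, which were taken out on day 14, digested with collagenase IV, and pooled. Only mouse genes are listed, so RNA of the graft itself is not seen, and the labels give neither the age nor the sex of the mice. Each condition is 1 library, so the condition and the library cannot be told apart, no test was made, and every interval given covers counting error only.

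Lineage factors are DNA-binding proteins that turn on the genes of one cell type and hold back those of another. *Spi1* encodes PU.1, which all myeloid cells use. *Irf8* and *Batf3* are needed for type 1 conventional DCs (cDC1), which present antigens of dead cells, *Irf4* for many type 2 conventional DCs (cDC2), and *Zbtb46* marks conventional DCs among immune cells. *Maf* encodes c-Maf, a factor of macrophages that is also used by T cells. *Cebpa* and *Cebpb* encode C/EBP factors that act in granulocytes, monocytes, and macrophages, and *Klf4* acts in monocytes and in many tissue cells. GM-CSF drives bone marrow to a mixture of macrophages and DCs, so these genes are a way to read what such a culture holds.

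Of the 9 genes, the following 3 differed by 2-fold or more between the cultures when all kept cells were summed, and the region from 250 bases before to 50 bases after the RefSeq start of each (GRCm38.p6) is shown for that reason. All are given 5′ to 3′ on the strand of the gene. Capitals mark the letters TATAAA, the TATA box.
*Irf8*, chr8:120736108-120736407, plus strand: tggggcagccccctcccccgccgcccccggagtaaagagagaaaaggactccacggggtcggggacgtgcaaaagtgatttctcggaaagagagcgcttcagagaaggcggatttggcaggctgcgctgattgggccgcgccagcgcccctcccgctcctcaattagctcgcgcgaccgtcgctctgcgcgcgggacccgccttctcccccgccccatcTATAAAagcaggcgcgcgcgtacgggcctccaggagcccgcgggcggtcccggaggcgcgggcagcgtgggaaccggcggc
*Cebpa*, chr7:35119043-35119342, plus strand: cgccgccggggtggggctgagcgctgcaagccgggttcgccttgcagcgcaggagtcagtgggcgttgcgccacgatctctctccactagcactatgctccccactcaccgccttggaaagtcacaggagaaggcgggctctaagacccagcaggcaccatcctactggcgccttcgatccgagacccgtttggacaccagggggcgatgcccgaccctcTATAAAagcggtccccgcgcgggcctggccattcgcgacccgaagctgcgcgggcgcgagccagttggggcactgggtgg
*Klf4*, chr4:55532426-55532725, minus strand: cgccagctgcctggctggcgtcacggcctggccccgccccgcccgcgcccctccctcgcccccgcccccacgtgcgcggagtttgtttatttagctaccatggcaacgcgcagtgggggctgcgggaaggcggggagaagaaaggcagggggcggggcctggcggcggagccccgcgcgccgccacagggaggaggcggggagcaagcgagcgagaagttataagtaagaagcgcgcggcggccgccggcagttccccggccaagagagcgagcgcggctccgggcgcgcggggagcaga

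The *Irf8* window held TATAAA 31 bases before the start. Of 32851 RefSeq promoters of this length, 13.6% held TATAAA on either strand. The *Cebpa* window held TATAAA 30 bases before the start, and the *Klf4* window held none. GGGCGG, the letters read by Sp and Klf factors, had 4 matches in the *Klf4* window, 3 in that of *Irf8*, and 0 in that of *Cebpa*, and 35.7% of promoters hold it. A half-site of the vitamin D receptor (AGGTCA or AGTTCA, or GGGTCA or GGTTCA) was in none of these 3 windows, while *Irf4* held 2, *Zbtb46* 3, and *Cebpb* 1, and 43.7% of all promoters held at least 1. The *Zbtb46* window belongs to a RefSeq start that lies 35038 bases downstream of the GENCODE gene start, and that of *Batf3* to one 567 bases downstream. A pair of half-sites 3 bases apart, found in 0.0396% of promoters, was in none of the 7 members with a promoter in the table, *Spi1* and *Maf* being the other two. These matches describe letters in a short window only.

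By GENCODE M21 on GRCm38, *Spi1* lies at chr2:91082390-91115756, *Irf4* at chr13:30749226-30766976, *Irf8* at chr8:120736358-120756694, *Batf3* at chr1:191097847-191108945, *Cebpa* at chr7:35119293-35121928, and *Cebpb* at chr2:167688915-167690418, all on the plus strand. *Zbtb46* lies at chr2:181387762-181459426, *Maf* at chr8:115682942-115707794, and *Klf4* at chr4:55527143-55532466, on the minus strand. All are protein-coding. *Irf8* overlaps *Gm20388* on the same strand, with 0 shared exon bases and 0 UMIs of *Gm20388* in each library. *Cebpb* overlaps *Tmem189*, *Maf* overlaps *Gm15655*, and *Cebpa* overlaps *Gm45091* on the opposite strand, and whether the counts used strand is not given in the sources used here. *Tmem189* had 69.07 CPM in Co-Mac and 117.4 in VD-Mac.

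Droplet libraries tag each RNA molecule at its 3′ end with a unique molecular identifier (UMI), so that levels need no correction for transcript length. Levels are given as CPM, which scales the UMIs of a gene to the total of gene UMIs in the cells summed. After the cell filter, 7257 Co-Mac, 8825 VD-Mac, and 2144 hSTSG cells remained, with 132574308, 116461484, and 22646544 gene UMIs and medians of 15804, 12089, and 6637.5 per cell. Kept barcodes shared between libraries numbered 15, 3, and 6. *Cyp24a1*, the vitamin D target that breaks down VD3, had 1 UMI in Co-Mac and 36662 UMIs in VD-Mac (314.8 CPM), and its receptor *Vdr* had 51.12 and 134.7 CPM, as the treatment labels have it. The titles call both cultures macrophages, but the largest class carried the genes of mature DCs, *Ccr7*, *Fscn1*, and *Ccl22*: 36.3% of Co-Mac and 37.6% of VD-Mac cells. Cells scored as macrophage-like made up 14.3% and 12.9%, the latter a cluster whose 10 leading genes held 1 monocyte marker and no listed macrophage marker, cells in cycle 28.5% and 28.7% (with medians of 23037 and 3694 UMIs per cell), neutrophil-like cells 14.4% and 12.6%, and cDC1-like cells 1.05% and 1.34%. These names come from marker genes, and the 9 factors were left out of the genes used for clustering.

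Across whole libraries the cultures were richer in the dendritic factors and the graft was richer in *Maf*, *Klf4*, and the C/EBP factors. *Spi1* was the most even, at 362.1 CPM in Co-Mac, 330.6 in VD-Mac, and 199.7 in hSTSG. In the graft it had 322.6 CPM in monocyte-like cells, 256 and 231.3 in the clusters led by *Gpnmb* and *Cd163*, and 5.104 and 12.63 in T cell-like cells. *Batf3* had 141.8, 149.8, and 6.756 CPM in the same order and *Zbtb46* 18.79, 25.47, and 5.652 CPM. *Irf4* had 60.1, 55.65, and 20.89 CPM. For these dendritic factors, both cultures lay above the graft and their counting intervals did not meet that of the graft. *Irf8* did not follow them, with 132.5 CPM in Co-Mac, 307 in VD-Mac, and 147.1 in hSTSG.

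*Maf* showed the widest range, with 1.509 CPM in Co-Mac (95% interval 1.307 to 1.733), 2.215 in VD-Mac (1.953 to 2.503), and 244.8 in hSTSG (238.4 to 251.4). *Klf4* had 62.44, 23.19, and 702.5 CPM, and *Cebpa* had 30.34, 9.935, and 80.06 CPM. *Cebpb* was the highest of the 9 in every library, with 547.9, 399.8, and 1172 CPM. All 4 were thus highest in the graft and, apart from *Maf*, lowest in VD-Mac. The graft was digested with collagenase and the labels name no such step for the cultures. The summed level of 8 immediate early genes (*Fos*, *Fosb*, *Jun*, *Junb*, *Egr1*, *Ier2*, *Zfp36*, and *Dusp1*, a list chosen after values were seen) was 829 CPM in Co-Mac, 1283 in VD-Mac, and 6310 in hSTSG, and its part in the level of *Klf4* was not tested.

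**Figure D1:**
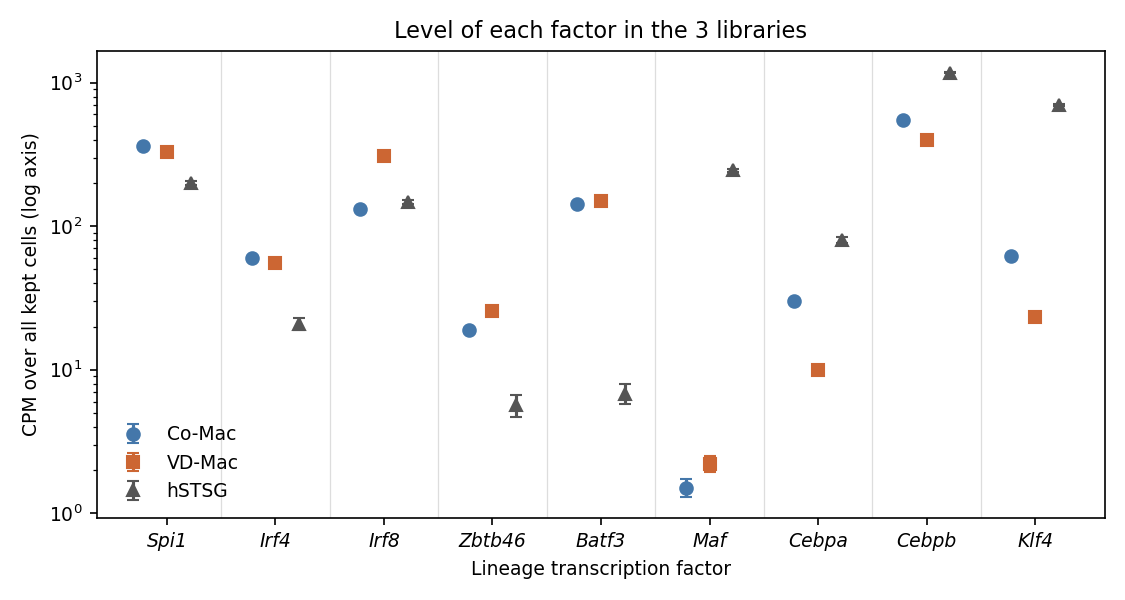
Level of each factor in the 3 libraries, in CPM over all kept cells on a log axis, with 95% counting intervals, most of which are smaller than the symbols. *Maf* lies at 1.509 and 2.215 CPM in the cultures and at 244.8 CPM in the graft, while *Batf3* lies at 141.8 and 149.8 CPM in the cultures and at 6.756 CPM in the graft.

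Within the cultures each factor had its own place. The PU.1 gene *Spi1* was present in every myeloid class of Co-Mac, from 152.9 CPM in basophil- or mast cell-like cells and 197.8 in the main mature DC-like cluster to 466.5 in macrophage-like cells and 540.9 in cDC1-like cells. The cluster with the highest level (672.2 CPM) was a shallow cycling cluster with a median of 3250 UMIs per cell and 0.254% mitochondrial UMIs. In VD-Mac the order was alike, with 183.5 CPM in the mature DC-like cluster, 465.7 in cluster 5, which scored as macrophage-like, and 522.5 in cDC1-like cells. Cells of the graft that should lack PU.1 gave the background of the graft library, and that of the cultures was not measured. Every cell was thinned down to the same depth, 2000 UMIs. A UMI of *Spi1* was then in 0.578% and 1.64% of the 2 T cell-like clusters and 0% of fibroblast-like cells of the graft. In Co-Mac it was in 31.8% of mature DC-like and 61.9% of macrophage-like cells.

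*Zbtb46* and *Batf3* were concentrated in the mature DC-like cells. Of the *Zbtb46* UMIs of Co-Mac, 62.2% came from the mature DC-like cluster, which held 36.2% of the cells, and of the *Batf3* UMIs 65.6%. *Zbtb46* had 37.8 CPM there (35.95 to 39.74), 32.64 in cDC1-like cells (22.74 to 45.4), 10.99 in macrophage-like cells, and 1.311 in the main neutrophil-like cluster. The first 2 intervals overlap, and macrophage-like cells lay below both. *Batf3* had 300.7 CPM in the mature DC-like cluster (295.4 to 306.1), 70.8 in macrophage-like cells, 66.56 in the deep cycling cluster, and 60.62 in cDC1-like cells. The gene known for cDC1 was thus higher in the mature DC-like cells than in the cDC1-like cells. Among unnamed clusters, *Batf3* had 273.6 CPM in cluster 10 (69 cells, 222.8 to 332.4) and 132 in cluster 11. The interval of cluster 10 overlaps that of the mature DC-like cluster. After thinning, 6.78% of the mature DC-like cells and 0.153% of the main neutrophil-like cluster had a UMI of *Zbtb46*.

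The interferon regulatory factors differed from each other. *Irf8* had 969.9 CPM in the cDC1-like cells of Co-Mac (911.9 to 1031), 246 in the mature DC-like cluster, 44.93 in macrophage-like cells, and 24.26 in the main neutrophil-like cluster. *Irf4* had 64.9 CPM in the mature DC-like cluster, 67.57 in macrophage-like cells, and 14.92 in cDC1-like cells. *Irf4* thus did not separate mature DC-like from macrophage-like cells, with 62.45 to 67.41 and 64.25 to 71.02 CPM as overlapping intervals, while *Irf8* did. Among Co-Mac clusters of 30 cells or more, the one with the highest *Irf4* (84.18 CPM) stayed unnamed and was led by *Inhba*, *Cav1*, and *Cd36*. Thinned to 2000 UMIs, 4.08% of mature DC-like cells had UMIs of both *Irf8* and *Irf4*.

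The factors of macrophages and granulocytes were low in the DC-like cells. *Cebpb* had 1621 CPM in the main neutrophil-like cluster of Co-Mac, 796.3 in macrophage-like cells, 730.9 in the deep cycling cluster, 55.57 in the mature DC-like cluster, and 35.44 in cDC1-like cells. *Klf4* had 95.71 CPM in macrophage-like cells and 94.36 in the deep cycling cluster, with overlapping intervals, against 12.06 in the mature DC-like cluster. *Cebpa* was highest in basophil- or mast cell-like cells (75.72 CPM, 61 cells) and macrophage-like cells (59.06 CPM), whose intervals also overlap. *Maf* was low in Co-Mac, with 4.493 CPM in macrophage-like cells, 0.1464 in the mature DC-like cluster, and 0 UMIs in cDC1-like cells, which allows up to 3.44 CPM. In VD-Mac it had 5.134 CPM in cluster 5 and 10.31 (7.519 to 13.79) in the neutrophil-like cluster.

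**Figure D2:**
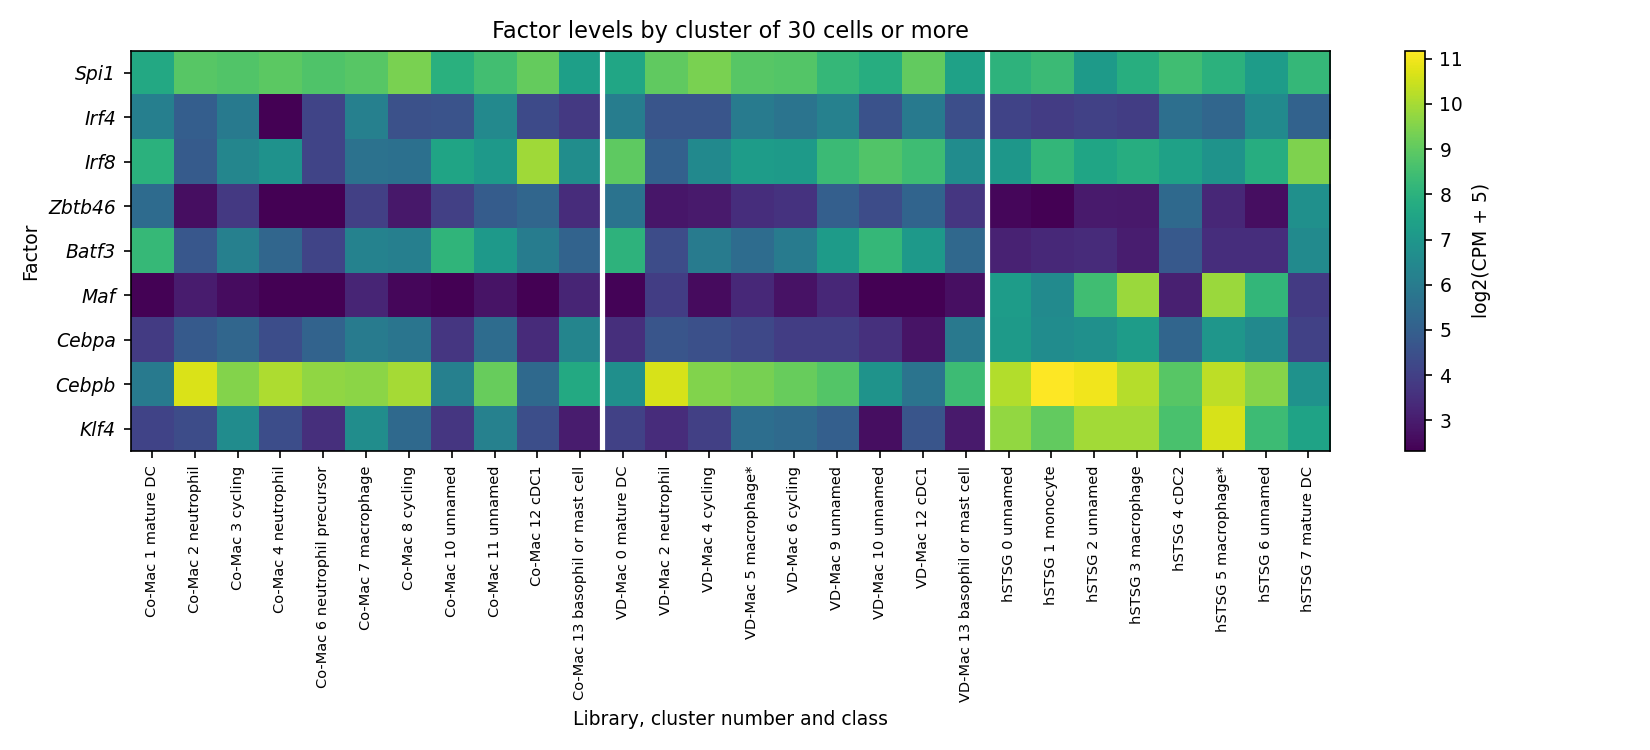
Level of each factor in every cluster of 30 cells or more, as log2(CPM + 5), with an asterisk where a cluster scored as macrophage but its leading genes held more markers of another class, and white lines between Co-Mac, VD-Mac, and the monocyte, macrophage, and DC clusters of hSTSG. *Batf3* is bright in the mature DC-like clusters of the cultures. Within each library *Zbtb46* is highest in the mature DC-like cluster, but in the cultures it is darker there than *Batf3*, at 37.8 and 46.17 CPM. *Batf3* is bright also in the unnamed cluster 10 of Co-Mac (273.6 CPM) and of VD-Mac (289.4 CPM). *Maf* is dark in all culture clusters and bright in the *Cd163* and *Lyve1* clusters of the graft.

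Next, VD-Mac was compared with Co-Mac over all kept cells. *Irf8* was higher in VD-Mac, with 35759 UMIs against 17567 and a log2 ratio of CPM of 1.21 (95% interval 1.19 to 1.24), or 2.32-fold. *Cebpa* was lower, with 1157 UMIs against 4022 and a log2 ratio of -1.61 (-1.71 to -1.52), and so was *Klf4*, with 2701 UMIs against 8278 and -1.43 (-1.49 to -1.37). A gene was called where the ratio reached 2-fold and the higher of both levels reached 10 CPM. Of the 8 members at this level, 1 was called higher and 2 lower, while among all 7732 genes at this level 6.79% were called (2.16% higher and 4.63% lower). *Zbtb46* had a log2 ratio of 0.44, *Batf3* of 0.08, *Irf4* of -0.11, *Spi1* of -0.13, and *Cebpb* of -0.45, all under 2-fold, and *Maf* was below 10 CPM in both. The median log2 ratio was -0.12 over the members and -0.10 over all genes.

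In a sum over all cells, fewer cells of a type and less RNA per cell cannot be told apart. With a mitochondrial limit of 5%, which kept 3125 and 3619 cells, the log2 ratio was 0.93 for *Irf8*, -0.96 for *Cebpa*, and -2.36 for *Klf4*, so that only *Klf4* was still past 2-fold. When the VD-Mac classes were weighted as in Co-Mac, *Irf8* had a log2 ratio of 0.95. Taken as a mean over cells it had 0.92, just under 2-fold.

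The cultures were therefore compared class by class. Cells of the same class fell largely into different clusters in the 2 cultures, so each comparison names its clusters, and a cluster that is mostly of 1 library may be that library. In the mature DC-like cells (clusters 0 and 1, 3315 VD-Mac and 2637 Co-Mac cells) *Irf8* was the one member called, at 498.8 CPM in VD-Mac against 246.1 in Co-Mac (log2 ratio 1.02, 0.99 to 1.05), with 4.78% of all genes called (2.3% higher and 2.48% lower). The ratio lay at the edge of the 2-fold limit. Thinned to equal depth, 54% of cells of the main VD-Mac cluster and 33.5% of the main Co-Mac cluster had a UMI of *Irf8*. *Cebpb* was next, at 101.8 against 55.69 CPM (log2 ratio 0.87, 0.80 to 0.94). At a mitochondrial limit of 5% the calls changed places, with 0.94 for *Irf8* and 1.01 for *Cebpb*, and as a mean over cells *Irf8* had 0.96. *Zbtb46* (46.27 against 37.75 CPM), *Batf3* (262.5 against 300.6 CPM), and *Irf4* (62.45 against 64.99 CPM) differed by less than 1.5-fold. The mature DC markers summed to 4582 CPM in the main VD-Mac cluster and 6695 in that of Co-Mac, and the part of this in the *Irf8* level was not tested.

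Macrophage-like cells lay in cluster 5 of VD-Mac (1138 cells) and cluster 7 of Co-Mac (1036 cells). The genes that led cluster 5, *Ccl4*, *Ccl2*, *Ccl3*, and *Fn1* among them, included a monocyte marker and no macrophage marker of the list, so these are compared as clusters and not as one cell type. *Irf8* had 145.1 CPM in cluster 5 and 44.93 in cluster 7 (log2 ratio 1.69, 1.59 to 1.80). *Cebpa* had 13.97 and 59.06 CPM (-2.08, -2.28 to -1.89), and *Klf4* had 40.81 and 95.71 CPM (-1.23, -1.35 to -1.11). These 3 of 8 measured members were called, with 11% of all genes called (4.8% higher and 6.17% lower). Thinned shares went the same way: a UMI of *Irf8* was in 22.3% of cluster 5 and 6.76% of cluster 7, of *Cebpa* in 2.55% and 12.8%, and of *Klf4* in 7.82% and 15.7%.

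The remaining factors were closer between these clusters. *Spi1* had 465.7 and 466.5 CPM, *Cebpb* 652 and 796.3 CPM, and *Irf4* 58.96 and 67.57 CPM. *Zbtb46* (6.087 and 10.99 CPM) and *Batf3* (38.59 and 70.8 CPM) had log2 ratios of -0.85 and -0.88, short of 2-fold. *Zbtb46* passed 2-fold at resolution 0.8 (-1.06), with 30 principal components (-1.04), with each culture clustered on its own (-1.12), and at a mitochondrial limit of 5% (-2.0), and *Batf3* under the last of these (-1.60). Of the dendritic factors, *Irf8* was thus higher in cluster 5 while *Batf3* and *Zbtb46* were lower. Macrophage markers summed to 2606 CPM in cluster 5 and 2196 in cluster 7, monocyte markers to 1556 and 2033, mature DC markers to 341.3 and 235.2, and immediate early genes to 1906 and 1015, and the part of these in the result was not tested. The *Irf8* ratio depended on the mitochondrial limit, since at 5% it was 0.18 on the log2 scale, with -0.90 for *Cebpa* and -3.37 for *Klf4*.

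Cells in cycle, with *Mki67* and *Top2a*, showed the same 2 genes lower. Over clusters 4, 6, and 8 of VD-Mac and 3 and 8 of Co-Mac (2534 and 2065 cells), *Cebpa* had 10.82 CPM in VD-Mac and 33.69 in Co-Mac (log2 ratio -1.64), *Klf4* 34.13 and 92.61 CPM (-1.44), and *Irf8* 131.6 and 77.29 CPM (0.77, short of 2-fold), with 8.1% of all genes called (2.99% higher and 5.11% lower). Over the alternatives the ratio of *Irf8* ranged from 0.51 to 1.16, the last past 2-fold, at resolution 0.3. At a mitochondrial limit of 5% there was no cycling class to compare, so these ratios were not checked under that setting. The shallow clusters, low in mitochondrial UMIs, were cluster 4 of VD-Mac (1445 cells, median 1833 UMIs, 0.649% mitochondrial) and cluster 8 of Co-Mac (441 cells, 3250 UMIs, 0.254%). The deep clusters alone, 6 with 1082 and 3 with 1624 cells, gave -1.72 for *Cebpa*, -1.36 for *Klf4*, and 0.80 for *Irf8*, with 7.89% of all genes called (3.19% higher and 4.7% lower). Neutrophil-like cells (cluster 2 of VD-Mac, clusters 2 and 4 of Co-Mac, and 4 cells of its cluster 9, whose leading genes held more markers of another class) were alike in *Cebpb*, at 1592 and 1586 CPM (0.01, -0.04 to 0.05).

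In these neutrophil-like cells *Klf4* had 26 UMIs in VD-Mac and 77 in Co-Mac (-1.43, -2.13 to -0.77), and *Maf* had 45 and 14 UMIs (10.31 and 2.909 CPM, 1.83, 0.93 to 2.81), with 4.08% of all genes called (1.57% higher and 2.51% lower). Both rest on few UMIs, and that of *Klf4* fell short of 2-fold at a mitochondrial limit of 5% (-0.39) and as a mean over cells (-0.77). *Irf4* had 20.39 and 26.39 CPM there (-0.37, -0.78 to 0.03) and -1.08 at that mitochondrial limit. *Irf8* was close in both cultures, at 27.49 and 28.68 CPM. None of the 6 members at 10 CPM or more was called in basophil- or mast cell-like cells (77 and 61 cells), where 15.8% of all genes were called (8.85% higher and 6.9% lower). *Irf4* rests on 12 and 6 UMIs there, with a log2 ratio of 0.93 (-0.60 to 2.63), and passed 2-fold as a mean over cells (2.22) and with the members among the variable genes (2.30). *Cebpb* had the best-supported difference there, at 326.9 and 202.4 CPM (0.69, 0.38 to 1.00).

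**Figure D3:**
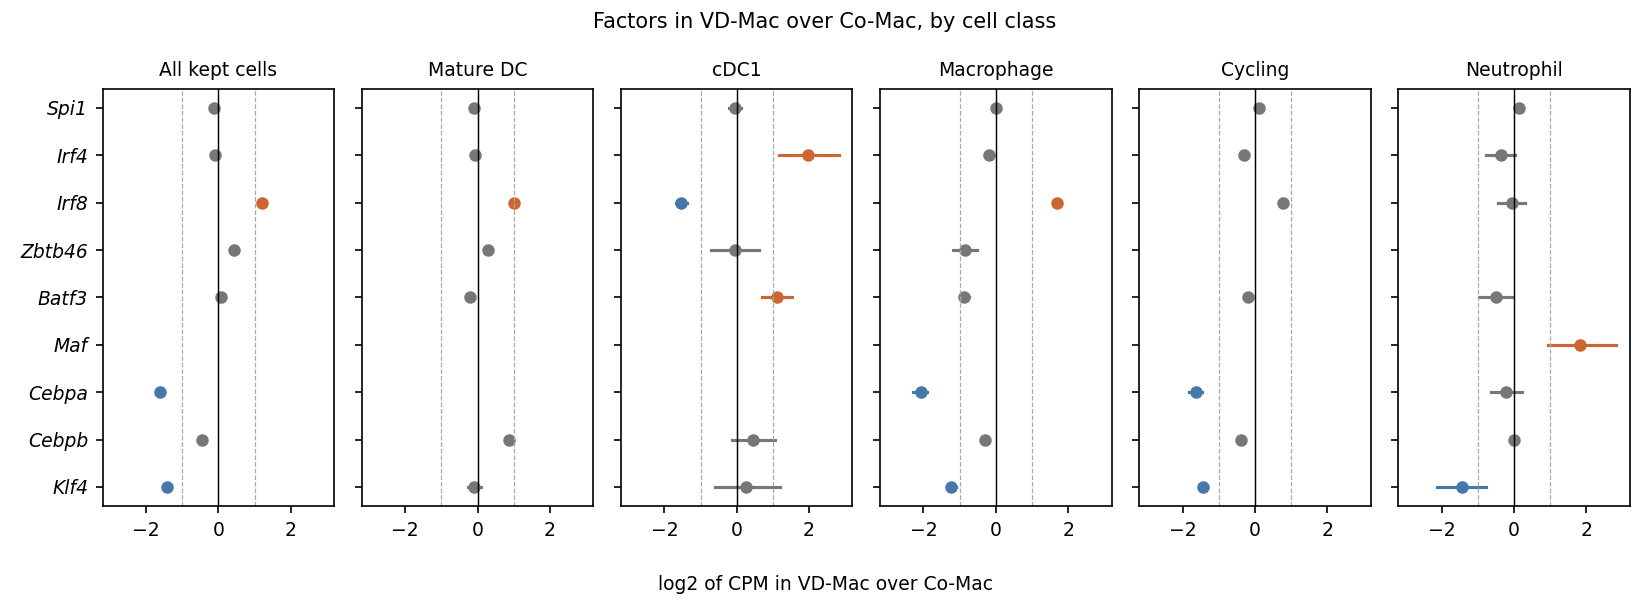
Log2 ratio of CPM in VD-Mac over Co-Mac for each factor, over all kept cells and in 5 classes, with 95% counting intervals; dashed lines mark 2-fold, orange and blue points are called higher and lower, grey points are not called, and members below 10 CPM in both cultures are left out. *Irf8* lies right of 0 in all cells, mature DC-like, macrophage-like (clusters 5 and 7), and cycling cells and left of 0 in cDC1-like cells.

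The cDC1-like cells were the class in which *Irf8* was called lower in VD-Mac. Cluster 12 held 118 cells of VD-Mac and 76 of Co-Mac and was led in both by *Itgae* and *Clec9a*, the latter a receptor for dead cells. *Irf8* had 515 UMIs in VD-Mac (336.3 CPM) and 1040 in Co-Mac (969.9 CPM), a log2 ratio of -1.53 (-1.68 to -1.37). *Irf4* had 89 and 16 UMIs (58.12 and 14.92 CPM, log2 ratio 1.96, 1.18 to 2.83). *Batf3* had 200 and 65 UMIs (130.6 and 60.62 CPM, 1.11, 0.70 to 1.53). With *Irf8* lower and *Irf4* and *Batf3* higher, 3 of 7 measured members were called, beside 17% of all genes (9.79% higher and 7.22% lower). *Spi1* (522.5 and 540.9 CPM), *Zbtb46* (31.35 and 32.64 CPM), *Cebpb* (48.33 and 35.44 CPM), and *Klf4* (20.25 and 16.79 CPM) had intervals of the ratio that included 0.

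The markers of the class moved with these factors. All 7 cDC1 markers were above 0 in both cultures, and their sum was 583.8 CPM in VD-Mac and 1131 in Co-Mac. *Naaa* had 120.8 and 329.2 CPM, *Wdfy4* 165.2 and 288.2, *Itgae* 202.5 and 369.3, *Clec9a* 71.84 and 104.5, and *Xcr1* 4 and 8 UMIs. The 8 mature DC markers summed to 553.8 CPM in VD-Mac and 197.7 in Co-Mac, with *Ccr7* at 155.4 and 24.25. The 10 macrophage markers summed to 310.2 and 250.9, with *C1qb* at 113 and 16.79. *C1qb* differed by more than the sum did, so the other macrophage markers together were lower in VD-Mac. Immediate early genes summed to 2729 and 1273 CPM. The part of these lists in the ratios was not tested.

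The cells were therefore divided by whether they held a UMI of *Xcr1* or *Clec9a*, a division added after the values were seen. In the 47 cells of each culture that did, *Irf8* had 445.1 CPM in VD-Mac (394.6 to 500.2) and 1305 in Co-Mac (1221 to 1393), a log2 ratio of -1.55 (-1.75 to -1.36). *Irf4* had 35 and 3 UMIs there, with a log2 ratio of 3.66 (2.00 to 6.01), and *Batf3* had 129.4 and 68.38 CPM (0.92, 0.39 to 1.47). *Clec9a* itself was lower in VD-Mac, and 47 of 118 cells there and 47 of 76 in Co-Mac passed, so the division is not independent of the change. In the 71 and 29 cells with neither, *Irf8* had 259.6 and 371.5 CPM (-0.52, -0.82 to -0.21). *Irf4* had 60.16 and 33.77 CPM in those cells (0.83, -0.06 to 1.83), short of 2-fold, and *Batf3* 131.5 and 46.76 CPM (1.49, 0.77 to 2.30). These ratios moved with the processing. With 30 principal components in the clustering the log2 ratio was -1.06 for *Irf8*, 0.93 for *Irf4*, 0.98 for *Batf3*, -2.66 for *Cebpb*, and -1.69 for *Klf4*. At a mitochondrial limit of 5% it was 0.49 for *Batf3*, -1.62 for *Zbtb46*, and 1.26 for *Cebpb*, and with each culture clustered on its own it was 0.91 for *Batf3*.

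**Figure D4:**
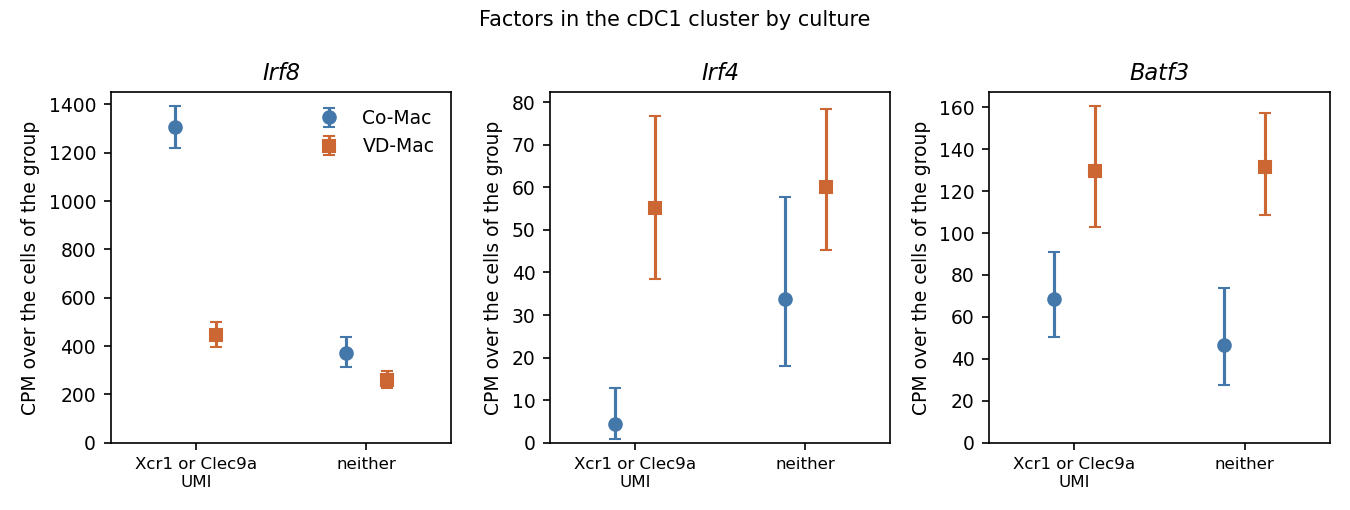
Level in CPM, with 95% counting intervals, of *Irf8*, *Irf4*, and *Batf3* in cluster 12 cells with a UMI of *Xcr1* or *Clec9a* and with neither, in Co-Mac and VD-Mac. In cells with such a UMI *Irf8* lies at 1305 CPM in Co-Mac and 445.1 CPM in VD-Mac, while *Irf4* and *Batf3* lie higher in VD-Mac.

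In the graft, cells of the monocyte- and macrophage-like clusters and of a cluster scored as plasma cell-like (127 cells) were clustered again. No cluster of the whole graft was named as DCs, and the DC-like names below come from this second clustering. *Maf* was highest in macrophage-like cells led by *Cd163* (125 cells, 914.5 CPM, 871.7 to 958.8) and in a cluster led by *C6* and *Lyve1* (60 cells, 903.9 CPM, 839.2 to 972.4), with overlapping intervals. The *Lyve1* cluster scored as macrophage-like, but its 10 leading genes held 1 marker of cDC2 (*Clec10a*) and no listed macrophage marker, so it is called by its gene. The 10 leading genes of the *Cd163* cluster held no listed macrophage marker either. Its mean log2 ratio of macrophage markers was 0.67, beside 0.83 in the *Lyve1* cluster. Monocyte-like cells with *Plac8* and *Ly6c2* had 88.79 CPM, and the largest cluster, led by *Gpnmb* and *Spp1* and left unnamed (329 cells), had 143.6 CPM. The cDC2-like cells, with *Cd209a*, had 3.62 CPM and the mature DC-like cells 9.076. The cDC2-like cells were no class of their own at resolution 0.3, with 30 principal components, or with the members among the variable genes. There *Cd209a* was among the leading genes of a cluster of 109 to 111 cells. That cluster scored as plasma cell-like, but its 10 leading genes held 1 cycling marker and no listed plasma cell marker. *Cd163* and *Lyve1* led one cluster at resolution 0.3 and at a mitochondrial limit of 5%. Thinned to 2000 UMIs, 70.7% of the *Cd163* cluster and 1.39% of cDC2-like cells had a UMI of *Maf*. Outside the myeloid cells, *Maf* had 496 and 646.7 CPM in the 2 T cell-like clusters, the higher of which was led by *Il17a* and *Trdc*. These clusters held 10.5% and 8.31% of the *Maf* UMIs of the graft, and the 2 clusters of the whole graft that scored as macrophage-like 18.5% and 44.7%.

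*Zbtb46* and *Batf3* took the opposite places. *Zbtb46* had 104.4 CPM in mature DC-like cells (37 cells, 76.41 to 139.2), 35.3 in cDC2-like cells (73 cells, 25.1 to 48.25), 2.664 in the *Cd163* cluster, and 0 UMIs in the 310 monocyte-like cells, which allows up to 1.2 CPM. *Batf3* had 88.49 CPM in mature DC-like and 22.63 in cDC2-like cells and was under 10 CPM in the other graft clusters of this subset. *Irf8* had 694.3 CPM in mature DC-like cells, 285.9 in monocyte-like cells, 222.2 in the *Cd163* cluster, 162.9 in cDC2-like cells, and 122.2 in the *Gpnmb* cluster. *Zbtb46* was thus limited to few cells of this subset, whereas *Irf8* was spread over monocyte- and macrophage-like cells as well. Lymphoid cells also held *Irf8*, with 221.3 CPM in plasma cell-like cells of this subset. It had 49.1 CPM in the T cell-like cluster led by *Il17a* and 240.8 in the other T cell-like cluster. *Irf4* had 41.63 CPM in cDC2-like cells (30.48 to 55.53), 32.6 in the *Lyve1* cluster (21.29 to 47.76), 29.5 in mature DC-like cells, and 9.757 in monocyte-like cells, the first pair with overlapping intervals. *Irf4* was higher in plasma cell-like cells of this subset (88.77 CPM, 69.58 to 111.6) and in the T cell-like cluster led by *Il17a* (140.3 CPM, 114.1 to 170.6). The other T cell-like cluster had 57.85 CPM (44.92 to 73.34), an interval that overlaps that of cDC2-like cells.

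*Klf4* had 1605 CPM in the *Lyve1* cluster, 973.6 in the *Cd163* cluster, 852.5 in the *Gpnmb* cluster, 526.6 in monocyte-like cells, 388.2 in cDC2-like cells, and 172.4 in mature DC-like cells. Every one of these lay above the highest level in any culture cluster of 30 cells or more, 95.71 CPM. Fibroblast-like cells of the graft had 1023 CPM as well. The immediate early genes were highest in the *Lyve1* cluster, at 15420 CPM, against 5003 in the *Cd163* cluster and 3379 in cDC2-like cells, and their part in the *Klf4* level was not tested. *Cebpb* had 2306 CPM in monocyte-like cells of the graft and 108.9 in mature DC-like cells. It had 2739 CPM in the main neutrophil-like cluster of the graft and 998.4 in the smaller one (40 cells). *Cebpa* had 142.3 CPM in the *Cd163* cluster, 136.9 in the *Gpnmb* cluster, and 120.4 in the *Lyve1* cluster, with overlapping intervals, and 11.34 in mature DC-like cells.

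To set macrophage against dendritic factors, the mean log2(CPM + 5) of *Irf4*, *Irf8*, *Zbtb46*, and *Batf3* was subtracted from that of *Maf*, *Cebpa*, *Cebpb*, and *Klf4* in each cluster, with *Spi1* left out since both lineages use it. This difference was -2.89 in the mature DC-like cluster of Co-Mac and -3.02 in that of VD-Mac, and 0.87 in cluster 7 of Co-Mac and 0.08 in cluster 5 of VD-Mac. The gap to the mature DC-like cluster was 3.75 for cluster 7 in Co-Mac and 3.1 for cluster 5 in VD-Mac. Since the genes that led cluster 5 included no listed macrophage marker, these gaps are not read as those of one cell type. The cDC1-like cells lay at -2.50 and -2.79, the deep cycling clusters at 0.44 and -0.34, and the main neutrophil-like clusters at 1.42 and 1.43. By all 8 factors, cluster 5 and the deep cycling cluster of VD-Mac thus lay nearer to the dendritic side than clusters 7 and 3 of Co-Mac. With *Maf* and *Cebpb* alone on the macrophage side these differences were far smaller, with 0.93 and 0.81 for clusters 7 and 5 and 0.50 and 0.31 for the deep cycling clusters.

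Graft cells reached far higher values. The *Cd163* cluster lay at 4.86, the *Lyve1* cluster at 4.70, the *Gpnmb* cluster at 4.37, monocyte-like cells at 3.91, cDC2-like cells at 0.69, and mature DC-like cells at -1.43. The mature DC-like cells were the lowest of these clusters in the graft, and the *Cd163*, *Lyve1*, *Gpnmb*, and monocyte-like clusters of the graft lay above every culture cluster. Fibroblast-like cells, in which PU.1 was near background (4.924 CPM of *Spi1*), lay at 4.54 by this measure. The measure is therefore not read outside myeloid cells. Among myeloid cells a high value does not mark macrophages alone. The main neutrophil-like clusters of Co-Mac (1.42) and VD-Mac (1.43) lay above the culture clusters that scored as macrophage-like (0.87 and 0.08). The main neutrophil-like cluster of the graft lay at 3.64, below its monocyte-like cells (3.91).

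**Figure D5:**
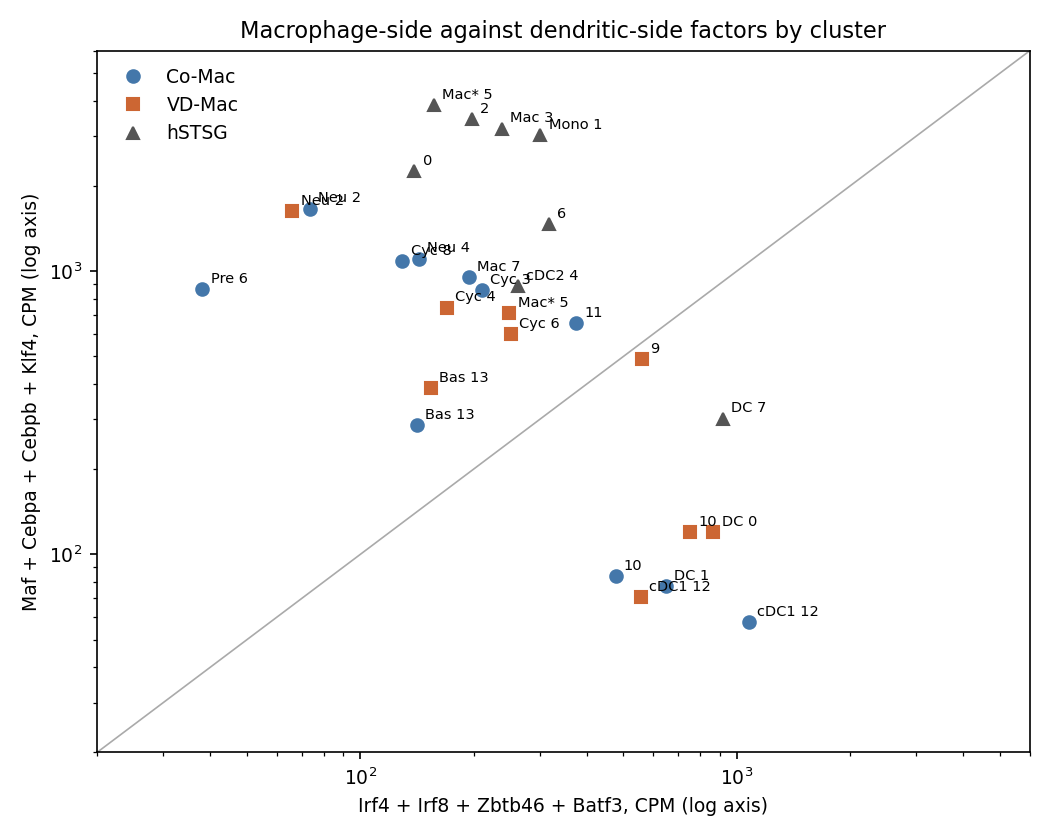
Summed CPM of the macrophage factors (*Maf*, *Cebpa*, *Cebpb*, *Klf4*, vertical axis) against summed CPM of the dendritic factors (*Irf4*, *Irf8*, *Zbtb46*, *Batf3*, horizontal axis) for each culture cluster, and each cluster of the monocyte, macrophage, and DC subset of the graft, of 30 cells or more, on log axes with the line of equality; Mac, DC, Cyc, Neu, Pre, Bas, and Mono stand for macrophage-, mature DC-, cycling, neutrophil-, neutrophil precursor-, basophil- or mast cell-, and monocyte-like, with the cluster number, and an asterisk marks a cluster that scored as macrophage-like but whose leading genes held more markers of another class. Mature DC-like clusters of all 3 libraries and the cDC1-like clusters of both cultures lie below the line, and the *Cd163* (number 3), *Lyve1* (number 5), and cDC2-like clusters of the graft lie above it.

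A list of 70 other factors of the same families and lineages was read for comparison. Over all kept cells, 51 reached 10 CPM and 6 were called (11.8%, beside 6.79% of all genes), 1 higher and 5 lower in VD-Mac, with a median log2 ratio of -0.24. *Meis1*, a progenitor factor, was higher, at 11.4 CPM in VD-Mac and 4.02 in Co-Mac. *Tfec*, a factor of the Mitf family in macrophages, was lower, at 23.11 and 65.34 CPM. By log2 ratio, *Id1* (-1.21) and *Id3* (-1.28), which block other factors, *Bcl6* (-1.06), a repressor, and *Rbpj* (-1.26), the factor of Notch signals, were also lower. By group, 3 of 17 macrophage and monocyte factors and 2 of 16 DC factors were lower, and none of 3 other IRF genes and none of 9 other Klf, Maf, Batf, and C/EBP genes was called.

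The list was also read by cluster and class. Between cluster 5 of VD-Mac and cluster 7 of Co-Mac, which are not read as one cell type, 2 of 50 measured factors were called higher in VD-Mac and 10 lower (24%, beside 11% of all genes). *Id2*, used in many DCs and lymphoid cells, had 119.7 and 802.9 CPM (log2 ratio -2.75), *Klf6* had 95.7 and 281.4 CPM (-1.56), and *Irf1*, an interferon response factor, had 28.37 and 11.3 CPM (1.33). In cDC1-like cells 10 of 48 were called higher and 9 lower (39.6%, beside 17% of all genes), among them *Relb*, a factor of mature DCs, at 63.35 and 28.91 CPM (1.13) and *Id2*, which cDC1 need, at 666.1 and 1441 CPM (-1.11). In mature DC-like cells 1 of 39 was higher (*Cebpd*, 1.57) and 1 lower (*Id3*, -1.84), or 5.13%, near the 4.78% of all genes.

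Over the 19 culture clusters with at least 50 cells, each culture apart, the genes with the most similar pattern were found for each factor by Pearson correlation of log2(CPM + 5), among genes with at least 50 CPM in 1 cluster, as a description, since the clusters share libraries and depth. *Zbtb46* was closest to *Ctnna1* (0.94) and *Batf3* to *Cxcl16* (0.94), *Irf8* to *Gnb4* (0.90), *Irf4* to *Lgmn* (0.90), and *Spi1* to *Snx3* (0.96). *Cebpb* was closest to *Sqor* (0.95), *Cebpa* to *Cd200r4* (0.93), *Klf4* to *Olfm1* (0.89), and *Maf* to *Cd38* (0.84). Among the members, *Irf8* and *Zbtb46* had 0.79, *Zbtb46* and *Batf3* 0.75, and *Irf8* and *Batf3* 0.65, while *Cebpb* had -0.83 with *Irf8*, -0.77 with *Zbtb46*, and -0.68 with *Batf3*. *Irf4* stood apart from *Irf8*, with 0.15.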

How the data were processed

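UMI counts per mouse gene and barcode, not normalized, were deposited by the authors, who made them with Cell Ranger (3.1.0 per the file headers). The submitters' processing notes name mm9 and Seurat 3.1.1, while the methods name a human build, so the build of the counts is unsettled. Positions were taken from GENCODE M21 (GRCm38), where 30934 of 31053 gene IDs were found, and promoters from RefSeq (GRCm38.p6, 7 of 9 members). Barcodes with at least 300 genes, under 100000 gene UMIs, and under 10% mitochondrial UMIs were kept, of 7866 (Co-Mac), 9794 (VD-Mac), and 2644 (hSTSG). Antibody counts were left out.

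Cells were clustered in R (4.3.3) by Seurat (5.3.0; Matrix 1.6.5) with the 15 components, 15 neighbors, and resolution 0.5 that the study states and 2000 variable genes, the cultures together and the graft apart, without the members and listed factors among the variable genes. Clusters took the name of the marker list with the highest mean log2 ratio (at least 0.5, 3 markers detected), a rule settled after clusters were seen. The study names other tools for cell types, so shares can differ from it. Doublets were kept: Scrublet (scanpy 1.11.5) called 1, 0, and 8 cells, so the highest-scoring 421, 623, and 37 cells were removed in an alternative.

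Intervals are exact at 95%: Poisson for levels, conditional binomial for ratios. Shares of cells were taken after thinning to 2000 UMIs, leaving out shallower cells (6785, 7676, and 1843 cells remained). All 9 members are named. Listed factors are all named where they were called over all kept cells, and only in part where they were called by cluster or class. Members and lists were chosen with earlier results of these data known. Scripts, tested on simulated data, used Python 3.11.15, NumPy 2.4.6, SciPy 1.17.1, pandas 2.3.3, and matplotlib 3.10.9, with edgeR 4.0.16 for one scaling alternative. The alternatives covered cell filters, doublets, scaling, clustering, and thresholds.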

Additional observations from a re-analysis of the deposited data

Results flagged for a closer look

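The VD-Mac over Co-Mac ratio of *Irf8* went in opposite directions in different cells. On the log2 scale it was 1.02 in mature DC-like cells but -1.53 in cDC1-like cells. Between cluster 5 of VD-Mac and cluster 7 of Co-Mac it was 1.69, and 0.18 at a mitochondrial limit of 5%. Both scored as macrophage-like, but because of their leading genes they were not read as one cell type. The difference between these ratios was not tested, since each culture is 1 library, and their intervals cover counting error only.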

How the results depend on the processing

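No paired analysis was possible because each condition is 1 library. Of the members, 3 were called over all kept cells, and 1 (*Klf4*) under a mitochondrial limit of 5%. The balance gap between macrophage-like and mature DC-like cells of Co-Mac was 4.40 with a pseudocount of 1, 3.36 at resolution 0.3, and 3.67 with doublets removed, and that of VD-Mac was 3.75 with a pseudocount of 1 and 3.44 from *Maf* and *Cebpb* alone (3.73 in Co-Mac). Other listed factors called numbered 14 of 70 with no minimum level (20%, beside 28.7% of all genes) and 16 of 51 at 1.5-fold (31.4%, beside 18.7%). Over 9 alternatives the all-cell log2 ratio ranged from 0.92 to 1.30 for *Irf8*, from -1.67 to -0.96 for *Cebpa*, and from -2.36 to -1.25 for *Klf4*. In cDC1-like cells *Irf8* ranged from -1.83 to -1.06 and in mature DC-like cells from 0.94 to 1.03. Between the macrophage-like clusters *Irf8* ranged from 0.18 to 1.72, and at resolution 0.3 VD-Mac had no such class. Member and class pairs called numbered 11 over 6 classes, and 9 to 14 over 5 to 7 classes under the alternatives, so these counts are not directly comparable. In the main setting, the share of measured members called ran from 0% (basophil- or mast cell-like) to 42.9% (cDC1-like). That of all genes ran from 4.08% (neutrophil-like) to 17% (cDC1-like). The median over all genes ranged from -0.13 to -0.01, the last with edgeR scaling. Another 3 alternatives (deep cycling clusters, cDC1 cells with a marker UMI, and cells with at least 5000 UMIs) were added after seeing the data. The causes were not tested. Levels under 10 CPM can rest on few UMIs, as for *Maf* in Co-Mac (200) and VD-Mac (258). This does not hold for all of them, since *Cebpa* in VD-Mac (9.935 CPM) had 1157 UMIs.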
